A study of Mus musculus with 4 samples.

Results

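The genes of MHC class II antigen presentation were examined in follicular B (FOB) cells, the mature B cells that circulate through the follicles of the spleen. The 10 genes were chosen by symbol from the 55401 genes of the count table, and they encode the chains of the classical class II molecules (H2-Aa, H2-Ab1, H2-Eb1), the invariant chain (Cd74), the peptide exchange factor H2-DM (H2-DMa, H2-DMb1, H2-DMb2), its modulator H2-DO (H2-Oa, H2-Ob) and the class II transactivator (Ciita). All 10 passed the filter on low counts, which left 14123 genes for testing. RNA was sequenced from FOB cells sorted from the spleen as B220+, CD93-, CD23 high and CD21 low in C57BL/6 mice labelled as 7 weeks old. Both groups carried Hnrnpf fl/fl alleles and had 2 libraries each. The WT group carried no Cre, and the Hnrnpf bKO group carried a Cre that is expressed in B cells and removes Hnrnpf, the gene of the RNA-binding protein hnRNP F. Nothing in the labels says how many mice stood behind a library, so p-values measure the spread between these libraries, which may be technical.

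A class II molecule is a dimer of an α and a β chain that shows peptides from ingested proteins to CD4+ T cells. The invariant chain occupies its groove in the endoplasmic reticulum and guides it to endosomes, where proteases trim the invariant chain to the fragment CLIP. H2-DM then exchanges CLIP for other peptides, and H2-DO, which is found mainly in B cells, binds H2-DM and restrains it. B cells use this pathway to present the antigen taken up by their receptor and so to obtain help from T cells. Ciita is a coactivator that binds no DNA of its own and is recruited to class II promoters by factors bound at the S, X and Y boxes.

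The targeted gene was checked first. Hnrnpf had 5780 and 6634 counts in WT replicates 1 and 2 and 1167 and 1194 counts in bKO replicates 1 and 2, which left 20.1% of the WT level. Since the WT group carried no Cre, loss of hnRNP F and the presence of the Cre allele cannot be told apart in what follows. Library totals lay between 15698567 and 18908963 counts.

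Class II mRNAs were among the most abundant of these cells, and the genotype comparison showed small differences. In WT replicates 1 and 2 the 10 genes together took 2.56% and 2.73% of all counts, and in bKO replicates 1 and 2 they took 2.74% and 2.60%, so the groups overlapped. In the quasi-likelihood test of edgeR (edgeR adjusted p), with Benjamini-Hochberg adjustment across all 14123 genes (adjusted p at most 0.05, the call used throughout), 1 of the 10 genes was called, H2-DMb2, which fell. The same rule called 6.97% of all tested genes, 4.15% as higher and 2.83% as lower in bKO. Among the 652 tested genes that averaged 5000 counts or more it called 20.1%, and 9 of the 10 class II genes had such counts. None of the 10 was called when a fold change of at least 2 was also required, a rule that 0.899% of all genes met. The values of the 2 groups of libraries did not overlap in counts scaled to library size (CPM) for 4 of the 10 genes, against 50.1% of all tested genes. The median log2 fold change of the 10 genes (bKO over WT) was -0.01, with 5 above and 5 below 0, and that of all tested genes was -0.00. The standard errors ran from 0.05 to 0.06, and the 95% intervals of the 9 genes that were not called stayed between -0.20 and 0.27 on the log2 scale, which is 12.7% lower to 20.5% higher than WT.

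**Figure D1:**
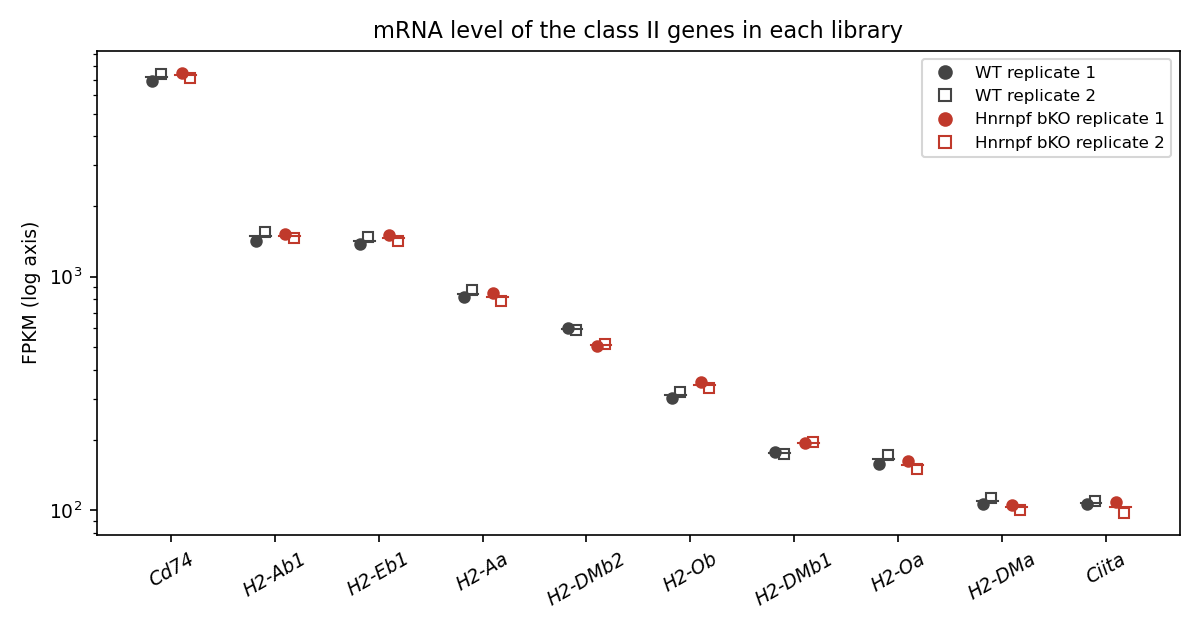
FPKM of the 10 class II genes on a log axis, ordered by mean level, with a symbol for each of the 4 libraries and a short line at each group's mean. Cd74 stands far above the others at 6919 to 7485, and for most genes the WT and Hnrnpf bKO libraries lie on top of each other.

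Compared as FPKM, a count scaled to gene length and library size, the levels fell into a wide order. Cd74 had the highest mean FPKM of all genes in the table, at 7230. H2-Ab1 (mean 1492 FPKM, rank 12 of all genes) and H2-Eb1 (mean 1446 FPKM, rank 13) followed with overlapping libraries, then H2-Aa (mean 833 FPKM, rank 37), H2-DMb2 (mean 552 FPKM, rank 58), H2-Ob (mean 328 FPKM, rank 103), H2-DMb1 (mean 185 FPKM, rank 179) and H2-Oa (mean 160 FPKM, rank 223). H2-DMa (mean 106 FPKM, rank 372) and Ciita (mean 105 FPKM, rank 379) were lowest and their libraries overlapped. Other neighbours in this order did not overlap across the 4 libraries. The order depends on the gene length: the deposited size sums all annotated exons of a gene and is 3.37 times the length of the first coding transcript for H2-Aa. With the length of the first coding transcript, H2-Aa stood above H2-Eb1 and H2-DMa above H2-Oa. On that length the libraries of H2-DMb2 and H2-Ob overlapped, as did those of H2-DMb1 with H2-DMa and of H2-DMa with H2-Oa.

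Cd74 encodes the invariant chain, the chaperone that keeps the class II groove closed until the endosome. Its FPKM was 6919 and 7385 in WT and 7485 and 7130 in bKO. The groups overlapped, and the log2 fold change was 0.04 (SE 0.05, 95% interval -0.06 to 0.14, edgeR adjusted p = 0.658). The gene alone took 1.16% and 1.24% of all counts in WT and 1.26% and 1.20% in bKO.

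The classical chains also overlapped between the genotypes. H2-Ab1, the β chain of I-A, had 1428 and 1549 FPKM in WT and 1531 and 1460 FPKM in bKO (log2 fold change 0.02, 95% interval -0.09 to 0.12, edgeR adjusted p = 0.880). H2-Aa, its α chain partner, had 815 and 878 FPKM in WT and 853 and 786 FPKM in bKO (log2 fold change -0.04, 95% interval -0.15 to 0.08, edgeR adjusted p = 0.753). H2-Eb1, the β chain of I-E, had 1381 and 1473 FPKM in WT and 1507 and 1422 FPKM in bKO (log2 fold change 0.05, 95% interval -0.05 to 0.15, edgeR adjusted p = 0.625). In these 3 genes and in Cd74, WT replicate 2 exceeded WT replicate 1 and bKO replicate 1 exceeded bKO replicate 2. C57BL/6 mice do not make I-E because their H2-Ea gene, the α chain, is defective. H2-Ea had 3 and 22 counts in WT and 20 and 13 counts in bKO, far below its β chain. H2-Eb2, a less known β chain gene next to it, had 3390 and 4091 counts in WT and 3731 and 3882 counts in bKO and was not called (log2 fold change 0.11, edgeR adjusted p = 0.333).

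The balance of the chains was compared within each library as a ratio of FPKM, which does not depend on depth. With 2 libraries against 2, the exact permutation test cannot give a two-sided p below 0.333. H2-Aa over H2-Ab1 was 0.571 and 0.567 in WT and 0.557 and 0.538 in bKO. H2-Eb1 over H2-Ab1 was 0.967 and 0.951 in WT and 0.984 and 0.974 in bKO. Cd74 over H2-Ab1 was 4.84 and 4.77 in WT and 4.89 and 4.88 in bKO. Each of these 3 ratios was separated between the genotypes with the smallest p possible (0.333), and their differences in mean log2 ratio were -0.06, 0.03 and 0.02. Leaving out 1 library at a time changed the size of these small differences. Their sign could not turn, because the groups did not overlap. H2-Aa over H2-Ab1 ran from -0.080 without bKO replicate 1 to -0.030 without bKO replicate 2. H2-Eb1 over H2-Ab1 ran from 0.018 without WT replicate 2 to 0.042 without WT replicate 1. Cd74 over H2-Ab1 ran from 0.012 without WT replicate 2 to 0.035 without WT replicate 1. The ratios themselves depend on the gene length. With the length of the first coding transcript, H2-Aa over H2-Ab1 was 0.907 and 0.901 in WT and 0.886 and 0.855 in bKO, and Cd74 over H2-Ab1 was 3.14 and 3.09 in WT and 3.16 and 3.16 in bKO.

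H2-DM is a dimer of the product of H2-DMa with that of H2-DMb1 or H2-DMb2, and the β chain genes had log2 fold changes of opposite sign. H2-DMb2, the more abundant, had 17159 and 19533 counts in WT and 13849 and 16183 counts in bKO, or 1049 and 1027 CPM against 883 and 903 CPM. The WT libraries lay well above both bKO libraries. H2-DMb2 fell to 86.1% of WT (log2 fold change -0.22, SE 0.05, 95% interval -0.32 to -0.12, edgeR adjusted p = 0.0125). H2-DMb1 had 4864 and 5519 counts in WT and 5097 and 5921 counts in bKO, or 297 and 290 CPM against 325 and 331 CPM. Both bKO libraries were above both WT libraries, but the gene was not called (log2 fold change 0.16, SE 0.05, 95% interval 0.05 to 0.26, edgeR adjusted p = 0.0741). H2-DMa, the shared α chain, had 368 and 385 CPM in WT and 363 and 348 CPM in bKO, with a log2 fold change of -0.08 (95% interval -0.19 to 0.03, edgeR adjusted p = 0.400). The call on H2-DMb2 was lost without bKO replicate 1 (edgeR adjusted p = 0.112) and with the replicate number as a block (edgeR adjusted p = 0.0627), and with limma, while its log2 fold change stayed between -0.23 and -0.20 under the 11 alternatives tried.

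**Figure D2:**
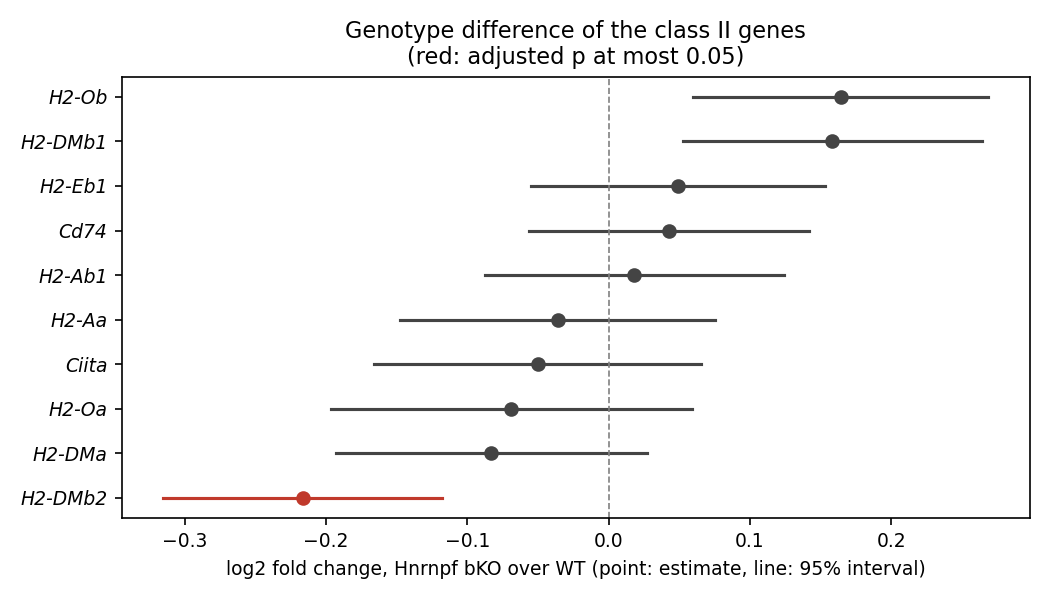
Log2 fold change of each class II gene, Hnrnpf bKO over WT, with its 95% interval from edgeR on 2 libraries per group. H2-DMb2 at -0.22 is the gene called, and the intervals of H2-DMb1 and H2-Ob lie above 0 although neither passed the adjusted threshold.

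The ratio of the H2-DM β chain mRNAs separated the genotypes, which follows from the opposite shifts of both genes without overlap. H2-DMb1 over H2-DMb2 was 0.295 and 0.294 in WT and 0.382 and 0.380 in bKO, a 1.30-fold difference (0.37 on the log2 scale, exact permutation p = 0.333, the smallest possible). The libraries of a genotype were nearly equal, and the gap between genotypes was far wider than the gap within them. When the counts of both genes were added, the sum was 22023 and 25052 in WT and 18946 and 22104 in bKO and was not called (log2 fold change -0.13, 95% interval -0.22 to -0.03, edgeR adjusted p = 0.127). This sum was chosen after seeing the data.

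The separation of both genes by short reads was examined, since they are near copies of each other. Their coding sequences have 783 bases each and are identical at 751 of them (95.9%) without a gap. Of all windows of 150 bases, the read length, 72 of 1529 windows of H2-DMb1 (4.71%) and 72 of 1741 windows of H2-DMb2 (4.14%) were shared, only with each other, and the other 8 genes shared none with any gene. Reads within such windows cannot be assigned to a gene by their sequence alone, and the counting could have split or dropped them, so both levels are uncertain to that degree. The stretch of 60 coding bases with most differences is shown as an example, since reads from most other windows also tell the genes apart. It covers coding bases 208 to 267 of the GENCODE transcripts (GRCm38), and capitals mark the 17 differing bases.
H2-DMb1: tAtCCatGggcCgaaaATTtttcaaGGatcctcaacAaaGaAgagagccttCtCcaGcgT
H2-DMb2: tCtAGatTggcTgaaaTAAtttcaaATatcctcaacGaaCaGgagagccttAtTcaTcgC

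H2-DO is formed by the products of H2-Oa and H2-Ob. H2-Ob, the β chain, had 26539 and 32474 counts in WT and 30025 and 32535 counts in bKO, or 1623 and 1707 CPM against 1915 and 1816 CPM. Both bKO libraries were above both WT libraries, and the gene was not called (log2 fold change 0.16, SE 0.05, 95% interval 0.06 to 0.27, edgeR adjusted p = 0.0626). It was called with DESeq2 (adjusted p = 0.0300), without the filter on low counts (edgeR adjusted p = 0.00421) and without WT replicate 2 (edgeR adjusted p = 0.0155). H2-Oa, the α chain, had 157 and 172 FPKM in WT and 162 and 150 FPKM in bKO, which overlapped (log2 fold change -0.07, 95% interval -0.20 to 0.06, edgeR adjusted p = 0.572). H2-Ob over the sum of H2-DMb1 and H2-DMb2 was 0.388 and 0.417 in WT and 0.509 and 0.473 in bKO, a difference of 0.29 in mean log2 ratio (exact permutation p = 0.333, the smallest possible). This separation follows from H2-Ob being higher and the H2-DMb sum lower in both bKO libraries. The ratio of the α chains, H2-Oa over H2-DMa, was 1.47 and 1.53 in WT and 1.54 and 1.50 in bKO and overlapped (exact permutation p = 0.667). With the length of the first coding transcript it was 0.917 and 0.954 in WT and 0.958 and 0.932 in bKO, below 1, and its difference in mean log2 ratio of 0.02 took values from -0.014 to 0.044 when a library was left out. On that length H2-Ob over the H2-DMb sum was 0.641 and 0.689 in WT and 0.842 and 0.782 in bKO.

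**Figure D3:**
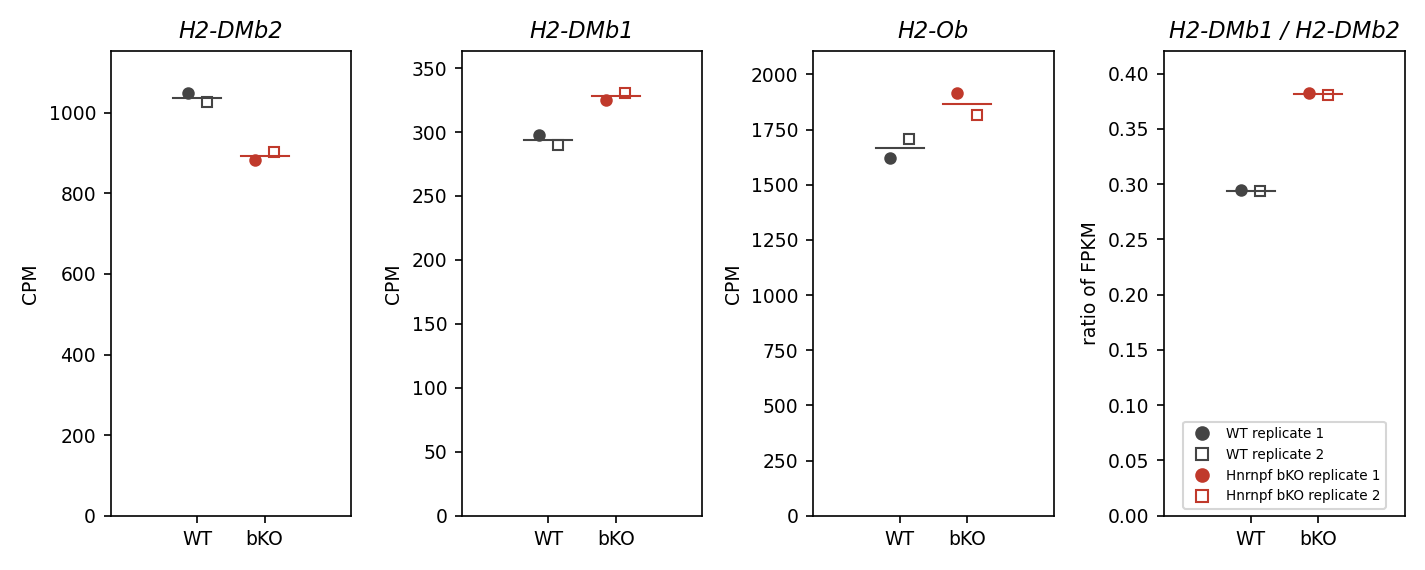
CPM of H2-DMb2, H2-DMb1 and H2-Ob and the ratio of H2-DMb1 to H2-DMb2 in FPKM, with a symbol per library, a line at each group's mean and axes from 0. H2-DMb2 is lower in both bKO libraries, H2-DMb1 and H2-Ob are higher, and the ratio is 0.295 and 0.294 in WT against 0.382 and 0.380 in bKO.

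Ciita, which sets class II transcription in B cells, had 16561 and 19623 counts in WT and 16261 and 16788 counts in bKO, or 106 and 109 FPKM against 109 and 97.4 FPKM. The groups overlapped, and the log2 fold change was -0.05 (95% interval -0.17 to 0.07, edgeR adjusted p = 0.654). Ciita was the only class II gene with a row in the authors' splicing table, for a skipped exon, and the other 9 genes had none. Of the 9875 tested genes that averaged 100 counts or more, 10.6% had a row in that table, so 1 of 10 is close to the background. The table gives no exon position, and Ciita has 8 annotated transcripts, 6 of them coding.

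The promoters of the genes that Ciita acts on were read to show the boxes that recruit its partners. RefSeq (GRCm38.p6) gave a window from 250 bases before to 50 bases after the start for 7 of the 10 genes, and H2-Ab1, Cd74 and Ciita had no entry. The letters AACNNATG stood for the X box and GATTGG for the Y box, an inverted CCAAT, and they were chosen with these promoters in view. Both strands were searched and the motifs do not overlap each other. GATTGG was in the windows of 7 genes, against 16.1% of all 32851 promoters, and AACNNATG was in those of 4, against 8.86%. Both in this order within 50 bases were in 4 genes and in 38 of all promoters (0.116%). The stretch from 6 bases before the X box to the Y box is printed for these 4 because H2-DMb2, H2-DMb1 and H2-Ob are the genes whose values were separated most by genotype. All lie on the plus strand, at chr17:34145122-34145163 for H2-DMb2, chr17:34153093-34153134 for H2-DMb1, chr17:34238814-34238852 for H2-Ob and chr17:34305772-34305812 for H2-Eb1, and capitals mark the boxes.
H2-DMb2: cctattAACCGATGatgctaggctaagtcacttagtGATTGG
H2-DMb1: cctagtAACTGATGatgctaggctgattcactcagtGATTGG
H2-Ob: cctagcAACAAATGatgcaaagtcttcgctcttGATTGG
H2-Eb1: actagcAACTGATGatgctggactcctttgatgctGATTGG
The boxes were 22 bases apart in both H2-DMb genes, 19 in H2-Ob and 21 in H2-Eb1. H2-DMb1 and H2-DMb2 were identical at 37 of 42 bases of this stretch. The log2 fold changes were 0.16 for H2-DMb1, -0.22 for H2-DMb2, 0.16 for H2-Ob and 0.05 for H2-Eb1, and only H2-DMb2 was called. Any part of the boxes in these values was not tested. A match in letters is a description and not evidence of binding.

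Besides the 10 genes, 7 lists of genes that serve the pathway were examined. They held 68 genes in the table, of which 66 were tested and 5 called (7.58%, against 6.97% of all genes), 3 higher and 2 lower in bKO. None of the 5 reached a fold change of 2.

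Endosomal proteases prepare peptides and cleave the invariant chain. None of the 10 genes listed for endosomal proteolysis was called (median log2 fold change 0.00, range -0.17 to 0.24). Ctss, cathepsin S, which makes the last cut of the invariant chain in B cells, had 6841 and 7915 counts in WT and 6421 and 7378 counts in bKO (log2 fold change -0.02). Ctsz, a carboxypeptidase, had a log2 fold change of -0.02. None of the 18 genes of class II turnover and traffic was called either (median 0.04). Cd83, which protects class II from ubiquitin-driven loss, had a log2 fold change of -0.03, and Ap1m1, an adaptor subunit of vesicle sorting, had 0.07.

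The factors that bind the S, X and Y boxes include Rfx5 and the NF-Y subunits. None of 8 was called (median -0.08, range -0.26 to 0.16), with values of 0.04 for Rfx5 and 0.03 for Ctcf, the insulator protein that loops the locus. The 2 lowest, named after their values were seen, were Rfxank at -0.26 (95% interval -0.46 to -0.07, edgeR adjusted p = 0.103) and Nfyb at -0.24 (95% interval -0.44 to -0.05, edgeR adjusted p = 0.136). Both were lower in each bKO library than in each WT library, but groups did not overlap for 50.1% of all tested genes. In the same list Nfya (-0.13) was also lower without overlap, and Rfxap (0.16) was higher without overlap. Of 10 coactivators of Ciita, 2 rose and none fell (median -0.04), against 4.15% and 2.83% of all tested genes. Cdk9, the kinase of the elongation factor P-TEFb, had 3086 and 3523 counts in WT and 4154 and 4927 counts in bKO and rose (log2 fold change 0.53, edgeR adjusted p = 6.64e-05). Kat2a, a histone acetyltransferase, had 1546 and 1800 counts in WT and 1795 and 2247 counts in bKO and rose (log2 fold change 0.34, edgeR adjusted p = 0.00540). Ncoa3, another coactivator, was at -0.04. Cdk9 kept its call in all 12 alternatives, and Kat2a lost it with limma alone.

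Among 14 genes that control Ciita transcription, 2 fell and none rose (median -0.04), against 2.83% and 4.15% of all tested genes. Those 2 averaged more than 5000 counts, a level at which 20.1% of genes were called. Spib, an Ets factor of B cells, had 13592 and 16286 counts in WT and 11161 and 12907 counts in bKO and fell (log2 fold change -0.24, edgeR adjusted p = 0.00828). Pax5, the factor of B cell identity, had 23018 and 25097 counts in WT and 18816 and 21089 counts in bKO and fell (log2 fold change -0.20, edgeR adjusted p = 0.0261). The call on Pax5 was lost in 6 of 12 alternatives, among them without WT replicate 1 (edgeR adjusted p = 0.0907), bKO replicate 1 (0.107) or bKO replicate 2 (0.158). The call on Spib was lost with limma and without bKO replicate 1 (edgeR adjusted p = 0.0643). Both are expressed well above Ciita, at a mean of 272 FPKM for Spib and 144 FPKM for Pax5.

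Cd74 also sits at the cell surface as a receptor for the cytokine Mif. Of 4 tested genes listed for this receptor and what it binds, 1 rose, against 4.15% of all tested genes. That gene averaged more than 5000 counts, a level at which 20.1% of genes were called. Cxcr4, a chemokine receptor that partners Cd74, had 6587 and 6104 counts in WT and 8495 and 9597 counts in bKO and rose (log2 fold change 0.58, edgeR adjusted p = 9.18e-04), a call lost with limma alone. Mif had 1333 and 1704 counts in WT and 1544 and 1843 counts in bKO, with both bKO libraries higher in CPM, and was not called (log2 fold change 0.23, edgeR adjusted p = 0.0515).

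**Figure D4:**
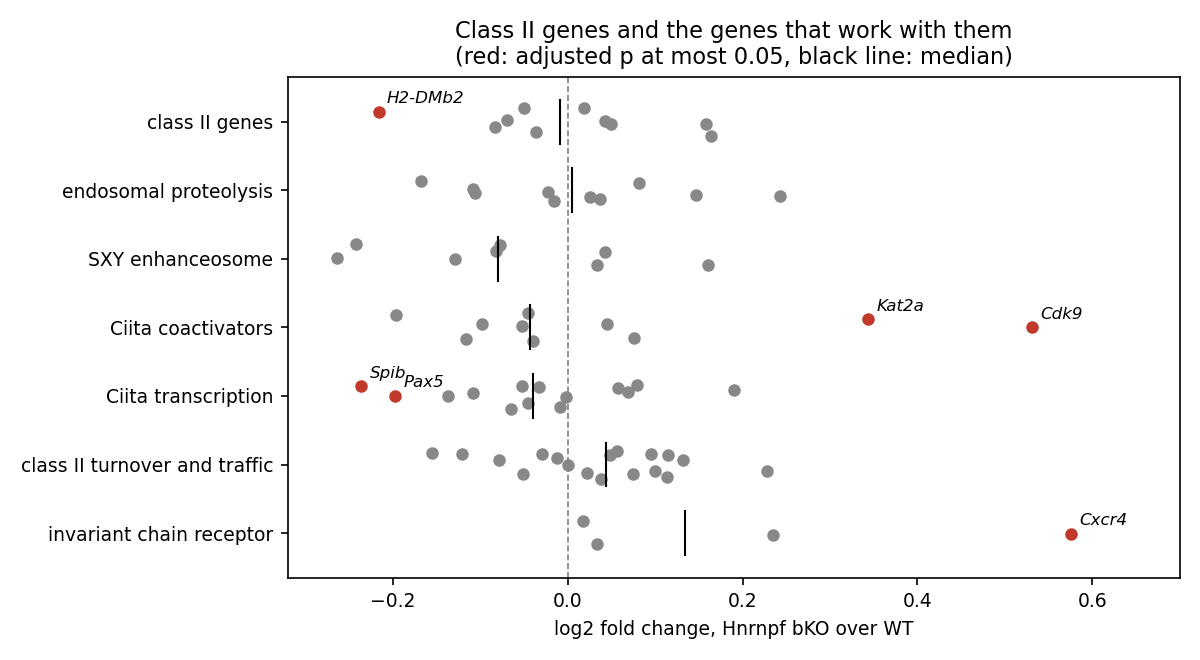
Log2 fold change, Hnrnpf bKO over WT, of each tested gene of the class II genes and of 6 lists that serve them, with a point per gene and a black line at the median. The genes called (H2-DMb2, Kat2a, Cdk9, Spib, Pax5 and Cxcr4) are red and named, and the medians shown lie between -0.08 and 0.13. The list of other class II genes, with H2-Eb2 and H2-Ea tested (median 0.31), is not drawn.

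Class II genes are also expressed by other cells of the spleen, so their markers were counted in the same libraries. Fewer cells of a type and less RNA per cell cannot be told apart in sorted bulk samples. The B cell markers were high, led by Ighd (mean 1693 FPKM) and Cd79a (mean 1544 FPKM). Among the B cell markers reported here, 2 rose (Fcer2a and Ighd) and 2 fell (Ms4a1 and Cr2), all with mean counts above 5000, where 20.1% of genes were called. Fcer2a and Cr2 encode CD23 and CD21, on which the cells were sorted. The 10 dendritic cell markers together had 17.6 and 21.4 CPM in WT and 27.0 and 34.1 CPM in bKO, and none was at 0 in any library. Of the 6 tested, 1 rose, against 4.15% of all tested genes. It was Flt3, a growth factor receptor (140 and 205 counts in WT, 277 and 436 in bKO, log2 fold change 1.12, edgeR adjusted p = 0.00149). Itgax, which encodes CD11c, had 46 and 67 counts in WT and 43 and 28 counts in bKO. Without Flt3, left out after its values were seen, the other 9 markers summed to 8.99 and 10.7 CPM in WT and 9.38 and 9.71 CPM in bKO, and the groups overlapped. The log2 fold changes of the 5 uncalled markers ran from -1.14 for Cd209a to 0.56, with Itgax at -0.57. The median over the 6 tested markers was 0.32. The 10 macrophage markers summed to 20.1 and 22.7 CPM in WT and 16.8 and 20.4 CPM in bKO with none of 4 tested called, led by Cd68 and Lyz2, and Fcgr1 and Cd14 were at 0 in at least 1 library. The 10 T cell markers summed to 92.8 and 117 CPM in WT and 80.1 and 95.3 CPM in bKO with none called, led by Lck and Trac. Of 7 marginal zone B cell markers, led by Dtx1 and Cd1d1, 1 rose (Cd1d1) and 2 fell (S1pr3 and Dtx1), against 4.15% and 2.83% of all tested genes. Among these markers the call was lost in 8 of 12 alternatives for S1pr3, 5 for Dtx1, 4 for Fcer2a and 3 for Cd1d1, and with limma alone for Flt3, Ms4a1, Cr2 and Ighd. The marginal zone markers summed to 465 and 452 CPM in WT and 415 and 424 CPM in bKO. Plasma cell markers, led by Irf4 and Mzb1, summed to 375 and 395 CPM in WT and 377 and 373 CPM in bKO with none of 6 tested called. The part of these cells in the class II values was not tested.

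Several class II genes overlap other genes, and the strand setting of the counting is not given in the sources used here. H2-DMa overlaps Brd2 over 3094 bases on the other strand, and Brd2 had more counts than H2-DMa, 7642 and 8442 in WT and 6608 and 8153 in bKO. Ciita overlaps Dexi on the other strand (1324 and 1689 counts in WT, 1513 and 1544 in bKO). H2-Eb1 overlaps antisense Gm20513 and H2-Oa overlaps antisense BC051537, which had at most 0.327% and 4.84% of their counts. Without strand, reads in such overlaps cannot be assigned, and the levels of H2-DMa and Ciita are uncertain to that degree.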

How the data were processed

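The authors sequenced poly(A) RNA of FACS-sorted FOB cells in paired 150-base reads, trimmed with cutadapt 1.9.1, aligned to GRCm38 with HISAT2 2.0.1 and counted per gene with HTSeq 0.6.1. The deposited counts are raw whole numbers per gene and library. The deposited FPKM values were made by the authors from counts, exonic gene size and library total, rounded to 2 decimals. The authors' splicing table (rMATS) holds their own FDR and inclusion level differences, which were not used, and only the presence and type of events were read. The strand setting and annotation release are not given in the sources used here.

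Counts were compared with edgeR 4.0.16 (TMM, filterByExpr, quasi-likelihood test, Benjamini-Hochberg adjustment, R 4.3.3) over 14123 genes, 2 WT against 2 Hnrnpf bKO libraries with 15698567 to 18908963 counts. CPM is the count scaled to the library's total over the tested genes, adjusted by its TMM factor. Ratios used two-sided exact permutation tests in Python 3.11.15. The biological coefficient of variation was 5.90%. Simulated data had 200 changed genes, drawn from the genes that averaged 100 counts or more (13840 genes tested). The test recovered 28% of genes changed by 0.25 on the log2 scale, 70% at 0.5, 94% at 1 and 100% at 2. These rates were not computed for the counts of the class II genes, of which 9 averaged 5000 or more.

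Alternatives were DESeq2 1.42.0, other filters, limma 3.58.1 with FPKM on a log2 scale after adding 0.1 or 1 (genes averaging 0.5 FPKM or more), RLE size factors, a replicate block and each library left out. The genes and lists were chosen with earlier results of these data known. Of the lists, called genes and the 2 highest by mean FPKM are named, together with H2-Ea, Hnrnpf, genes overlapping or neighbouring a class II gene, and the 3 genes nearest in level to Cd74 and to Ciita. Coordinates and transcripts are GENCODE M21 (GRCm38), and promoters are RefSeq GRCm38.p6. The values of 1 gene under this rule are not reported here.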

Additional observations from a re-analysis of the deposited data

How the results depend on the processing

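The 10 class II genes had 118 log2 fold changes under 12 alternatives, of which 106 kept their direction and their side of the threshold. The number of class II genes called was 1, and became 2 with DESeq2, 2 without the filter on low counts, 0 with limma at either pseudocount, 0 with the replicate block and 0 when H2-DMb1 and H2-DMb2 were summed. With each library left out in turn it ranged from 0 (without bKO replicate 1) to 2 (without WT replicate 2), where the lone library was assumed to vary like the other group. H2-DMb2 lost its call in 4 of 11 alternatives, with adjusted p from 1.03e-04 to 0.112. H2-DMb1 was called in none. Leaving out a library turned the sign of H2-Aa (-0.090 to 0.018), H2-Ab1 (-0.033 to 0.077) and Ciita (-0.12 to 0.022), none of them called. The 5 called genes of the pathway lists became 8 without the filter or without WT replicate 2, 3 without bKO replicate 1 and 1 with limma. The cause was not tested.

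Over all genes, 586 were called higher and 399 lower. The numbers were 370 and 250 with DESeq2, 29 and 16 with limma at a pseudocount of 0.1, 26 and 15 at 1, 378 and 234 with the replicate block, and 834 and 636 without the filter. The replicate numbers name libraries and pair nothing in the labels, and the correlation of deviations between libraries of the same number was -0.09. At 15698567 to 18908963 counts per library the standard errors of these genes were 0.046 to 0.059, and differences of that size were not detectable.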

Other observations

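Between H2-Oa and H2-Ea the annotation places 22 genes, of which 18 were tested, 8 of them class II genes described above. Of the other 10, 1 was called, against 6.97% of all tested genes. It was Tap1, which pumps peptides for class I molecules. That gene averaged more than 5000 counts, a level at which 20.1% of genes were called. Tap1 had 7528 and 9346 counts in WT and 6733 and 7239 counts in bKO and fell (log2 fold change -0.19, edgeR adjusted p = 0.0483), and this call was lost in 6 of 12 alternatives, among them without WT replicate 2 (0.242), bKO replicate 1 (0.0613) or bKO replicate 2 (0.282, edgeR adjusted p). Its neighbours were not called. Psmb8, a subunit of the immunoproteasome, had 4632 and 6007 counts in WT and 4489 and 5307 counts in bKO (log2 fold change -0.04), and Tap2, the partner of Tap1, had 4200 and 5172 counts in WT and 4099 and 4694 counts in bKO (log2 fold change -0.01).

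By the distance over the 4 libraries in log2(FPKM + 0.1), the genes nearest in level to Cd74 were mt-Co1, Igkc and Eef1a1, at distances of 1.38, 1.63 and 2.11. Those nearest to Ciita were Tapbp, Aldoa and Wdfy4, at 0.060, 0.074 and 0.103.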
